A study of Mus musculus with 57 samples.

Results

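Cells that carried the Sox1 reporter but not the FOXA2 reporter after 2 days of retinoic acid (RA) were compared with the cells that grew from them during 2 more days in a serum-based RA medium. Libraries were chosen by their labels, 3 of sorted D2 parents (Day2_Sox1+FoxA2-) and 3 of D4 progeny (Progeny_Day4_Sox1+FoxA2-), which are 6 of the 57 libraries of the series. The line is Sox1-EGFP/FoxA2mCherry, a mouse embryonic stem cell (ESC) line with green fluorescence driven from the Sox1 locus and a red tag on FOXA2, grown from a single sorted cell, so that all groups carry both reporters. The series holds 19 conditions, each with 3 libraries, and asks which states arise when the 2 reporters are switched on apart or together, and what the sorted cells give rise to.

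D2 parents had spent 2 days in N2B27 with 1 uM RA and were sorted as Sox1+FOXA2- just before RNA was taken. Their D4 progeny came from cells sorted at D2 through the same gate, replated on gelatin in serum medium without LIF and with 1 uM RA, and collected 2 days later with no further sort. A comparison group of 3 libraries, D4 sorted cells (Day4_Sox1+FoxA2-), stayed in N2B27 with 1 uM RA for 4 days and was sorted at the end. Progeny therefore differ from parents in time, replating, basal medium and the lack of a final sort, which cannot be told apart in the comparison with the parents. They differ from D4 sorted cells in the last 3 of these and in being gated at D2 and not at D4. D2 and D4 progeny of the Sox1-FOXA2+ and the Sox1+FOXA2+ gates, 6 libraries each, served for tests of a difference between gates.

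Counts on genes totalled 33407925, 55046208 and 38075019 in D2 replicates 1 to 3, and 11189529, 48091634 and 81845651 in progeny replicates 1 to 3. In D4 sorted replicates the totals were 40760442, 31770889 and 29665183. Progeny replicate 1 was the shallowest of these 9 libraries, and its 100 genes with most counts held 41.7% of the total. Mitochondrial transcripts took 9.85%, 9.10% and 9.88% of counts in D2 libraries, 13.4%, 7.79% and 6.76% in progeny, and 11.3%, 4.18% and 17.4% in D4 sorted libraries, so that the groups overlapped. The study calls the replicates biological, the labels only number them, and p-values measure the spread between these samples.

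SOX1 is among the earliest transcription factors of the neuroectoderm, and RA acts on ESCs through nuclear receptors that switch on its own carriers and degrading enzymes, anterior Hox genes and neural genes. Serum supplies a mixture of lipids and growth factors that differs from that of N2B27. It is known to act on cells through growth factor receptors, the AP-1 factors and serum response factor (SRF), whose targets include actin, tropomyosin, calponin and other genes of the contractile cytoskeleton that are high in smooth muscle and in spreading mesenchymal cells.

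The labels were first set against the genes of the gate. Foxa2 (ENSMUSG00000037025.11) stood at 9.07, 9.89 and 0 CPM (counts scaled to library size, with TMM factors) in the 3 D2 libraries and at 11.2, 0.895 and 5.43 in the progeny. These low values overlapped, and no difference was called (log2 fold change -0.12, standard error 1.76, adjusted p = 0.995). Sox1 had 0 counts in every one of the 57 libraries, as did Sox2 and Tubb3. All exon bases of these 3 genes lie within the span of another gene, and such genes were almost never counted, so that they check nothing. Nes, which encodes the intermediate filament nestin of neural progenitors, had 82.8, 51.1 and 15.6 CPM in D2 libraries, 1045, 664 and 440.1 in progeny, and 325, 354 and 78.6 in D4 sorted cells. Every progeny library lay above every D2 library, and Nes rose by a log2 fold change of 3.85 (standard error 0.640, adjusted p = 0.00717). Pax6, a transcription factor of neural progenitors, went the other way, with 146, 57.6 and 21.1 CPM in D2 libraries and 17.2, 16.0 and 7.89 in progeny. Its libraries did not overlap, but the difference was not called (log2 fold change -2.46, standard error 0.644, adjusted p = 0.101). It was called by DESeq2, without the filter and without D2 replicate 3 (adjusted p = 0.0188). Lack of overlap is given here and below as description only. With 3 libraries a group it cannot go below p = 0.1 in an exact permutation test, and its share over all genes is not given.

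D2 replicate 3 stood apart from the other D2 libraries. The summed level of 8 pluripotency markers, of which Zfp42 was highest and none was at 0, was 171, 233 and 892 CPM in D2 replicates 1 to 3, against 150.1, 54.3 and 213 in progeny and 237, 142 and 189 in D4 sorted cells. Nanog alone had 4.28, 17.1 and 128 CPM at D2. The same replicate had the lowest D2 values of Pax6 and Nes given above. Its part in the results was not tested beyond leaving it out, which gave 188 called genes in place of 231, of which 145 were shared.

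Between progeny and parents, 231 of 20673 genes tested (1.12%) were called at an adjusted p under 0.05, 178 of them higher in the progeny (0.861%) and 53 lower (0.256%). The genes that rose included genes of the contractile cytoskeleton, extracellular matrix genes, simple epithelial keratins and 6 of 15 neural progenitor genes tested. Of these 15, Prom1 fell and 8 were not called. The genes that fell also included Crabp1 and Stra6 of the RA list, Hoxb1 and Gbx2, the pluripotency genes Lin28a and Sall4, and enzymes of fatty acid synthesis. Of the 178 higher genes 177 are protein-coding and 1 is a long non-coding RNA, H19, and 49 of the 53 lower genes are protein-coding. The number called depended on single libraries. It was 124 without progeny replicate 1 (113 higher, 11 lower), 136 without progeny replicate 2 (120 higher, 16 lower), 144 without D2 replicate 1 (117 higher, 27 lower) and 130 without D2 replicate 2 (110 higher, 20 lower). Without progeny replicate 3 it was 192 (141 higher, 51 lower). In a fit of all 57 libraries 213 genes were called, 157 of them shared, and 11 of the 24 genes with the largest changes lost their call, 10 of these among the 12 that fell. Of the 231 genes, 92 were called whichever of the 9 libraries was left out.

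Within N2B27 the same 2 days gave no call. Between D4 sorted cells and D2 parents, 0 of 20673 genes (0%) were called by edgeR, with 1018 genes at an unadjusted p under 0.05, and DESeq2's Wald test called 103. Between progeny and D4 sorted cells, 82 genes (0.397%) were called, 59 higher (0.285%) and 23 lower (0.111%). This number was 39 without progeny replicate 1, 34 without progeny replicate 2, 44 without D4 sorted replicate 3, 127 without D4 sorted replicate 1 and 151 without D2 replicate 3. The share of higher calls depended on the processing, with 282 higher and 290 lower by DESeq2 and 83 higher and 7 lower in a fit of all 57 libraries. The 3 comparisons share libraries, so their values are set side by side below. Over all genes tested, the median log2 fold change was -0.03 for progeny against parents, 0.12 for D4 sorted cells against parents and -0.17 for progeny against D4 sorted cells. Single libraries turned these signs. Without D4 sorted replicate 3 the median was -0.06 for D4 sorted cells against parents and 0.05 for progeny against D4 sorted cells. Without D2 replicate 2 it was 0.10 for progeny against parents. In bulk RNA, fewer cells of a type and less RNA per cell cannot be told apart.

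Acta2 (ENSMUSG00000035783.9, GRCm38 chromosome 19, 34241090 to 34255590, minus strand) encodes smooth muscle actin and had the largest fitted change. It was at 0.171, 0 and 0 CPM in D2 libraries, the first of these resting on 6 counts. In progeny it reached 1049, 2343 and 935 CPM, and in D4 sorted cells 42.9, 0.943 and 11.9. All progeny libraries lay above all others, and D4 sorted libraries lay above the D2 libraries. The log2 fold change of progeny against parents was 14.78 (standard error 1.55, adjusted p = 0.000244), a fitted value that depends on the prior count because the D2 group was almost without counts. Against D4 sorted cells it was 6.28 (standard error 1.07, adjusted p = 0.0199). The latter call was lost without D4 sorted replicate 3, where adjusted p values over the libraries left out reached 0.0688.

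Of 23 members tested in a list of smooth muscle and serum-response genes, 13 rose, 0 fell and 10 were not called, with a median log2 fold change of 4.03. The remaining member of the list, Srf itself, had 0 counts and lies within another gene. Tpm1, a tropomyosin that lies along actin filaments (ENSMUSG00000032366.15, chromosome 9, 67022590 to 67049406), had 205, 198 and 192 CPM in D2 libraries, 5449.8, 5345 and 3434 in progeny, and 855, 618 and 262 in D4 sorted cells. Its D2 libraries were nearly equal, and progeny were far above both other groups (log2 fold change 4.58 against parents, standard error 0.472, adjusted p = 0.000244). Cald1, the actin-binding protein caldesmon, had 118, 105 and 96.8 CPM at D2 and 1937, 2507 and 1920.2 in progeny. D4 sorted cells had 431, 254 and 174 CPM of it, between the other groups and overlapping neither (log2 fold change 4.31 against parents, standard error 0.400, adjusted p = 0.000204). Cnn1, the smooth muscle calponin, rose from 3.94, 2.15 and 0 CPM to 82.9, 307 and 171, by a log2 fold change of 6.53 (standard error 1.17, adjusted p = 0.0116). Its D4 sorted libraries, at 44.5, 7.07 and 15.4 CPM, were above the D2 and below the progeny libraries, and its difference from the progeny was not called (adjusted p = 0.302).

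The other members that rose against the parents were Cnn2, Tpm2, Tpm4, Flna, Actn1, Myh9, Lmod1, Ccn1 and Ankrd1. Ankrd1, a muscle ankyrin-repeat gene, had 0 counts in all D2 libraries and 9.67, 29.0 and 4.97 CPM in progeny, so that it was at least 634-fold higher against a floor of 3 counts over the D2 group. The call of Ankrd1 was lost without any 1 of the 3 D2 libraries or of progeny replicates 1 and 2, and that of Flna, the actin cross-linker filamin, without D2 replicate 2, D2 replicate 3 or progeny replicate 1, with adjusted p up to 0.183 for Ankrd1 and below that for Flna. Actn1 lost its call without D2 replicate 3 (0.0577). With Ankrd1 set at its bound the median of the list was 4.03 as well. Tagln, another smooth muscle gene, had 1.08, 0.735 and 0 CPM at D2 and 11.5, 28.4 and 16.9 in progeny. These did not overlap, but the gene was not called (adjusted p = 0.173), and 67.9% of its exon bases lie within another gene, as do 69.7% of those of Tpm4, so their levels are uncertain.

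Set against D4 sorted cells, 10 of the 23 members were called higher in progeny and 0 lower, with a median log2 fold change of 2.48. Only Tpm1, Tpm2, Tpm4 and Cald1 kept this call whichever library was left out. Without progeny replicate 2 the calls of Lmod1, Tagln2, Cnn2, Actn1 and Myh9 were lost, and without D4 sorted replicate 3 those of Acta2, Tagln2, Cnn2, Actn1 and Myh9, so that 5 of the 10 were left in each case. Tagln2 was lost without D2 replicate 2, progeny replicates 1 or 3 or D4 sorted replicate 2 too, and Cnn2, Actn1 and Myh9 without progeny replicate 1 or D4 sorted replicate 2 (adjusted p up to 0.212 for Tagln2). For D4 sorted cells against parents, 0 were called and the median was 0.64. Myh11, the smooth muscle myosin heavy chain, had 189, 163 and 63.6 CPM in progeny against 5.69, 2.56 and 8.63 in D4 sorted cells (log2 fold change 4.62, standard error 0.791, adjusted p = 0.0200). In D2 parents it stood at 4.17, 11.2 and 44.0 CPM, below the progeny with D2 replicate 3 highest, and the change from the parents was not called (adjusted p = 0.0947). The call of Myh11 against D4 sorted cells was lost without progeny replicate 1 or D4 sorted replicate 2 (up to 0.0689). Cavin1, a coat protein of caveolae, rose from 34.9, 23.5 and 10.96 CPM at D2 to 627, 525 and 409 in progeny, against 59.5, 34.4 and 12.6 in D4 sorted cells. It was called in both comparisons (log2 fold change 4.49 against parents, adjusted p = 0.00107, and 3.87 against D4 sorted cells, adjusted p = 0.00893).

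**Figure D1:**
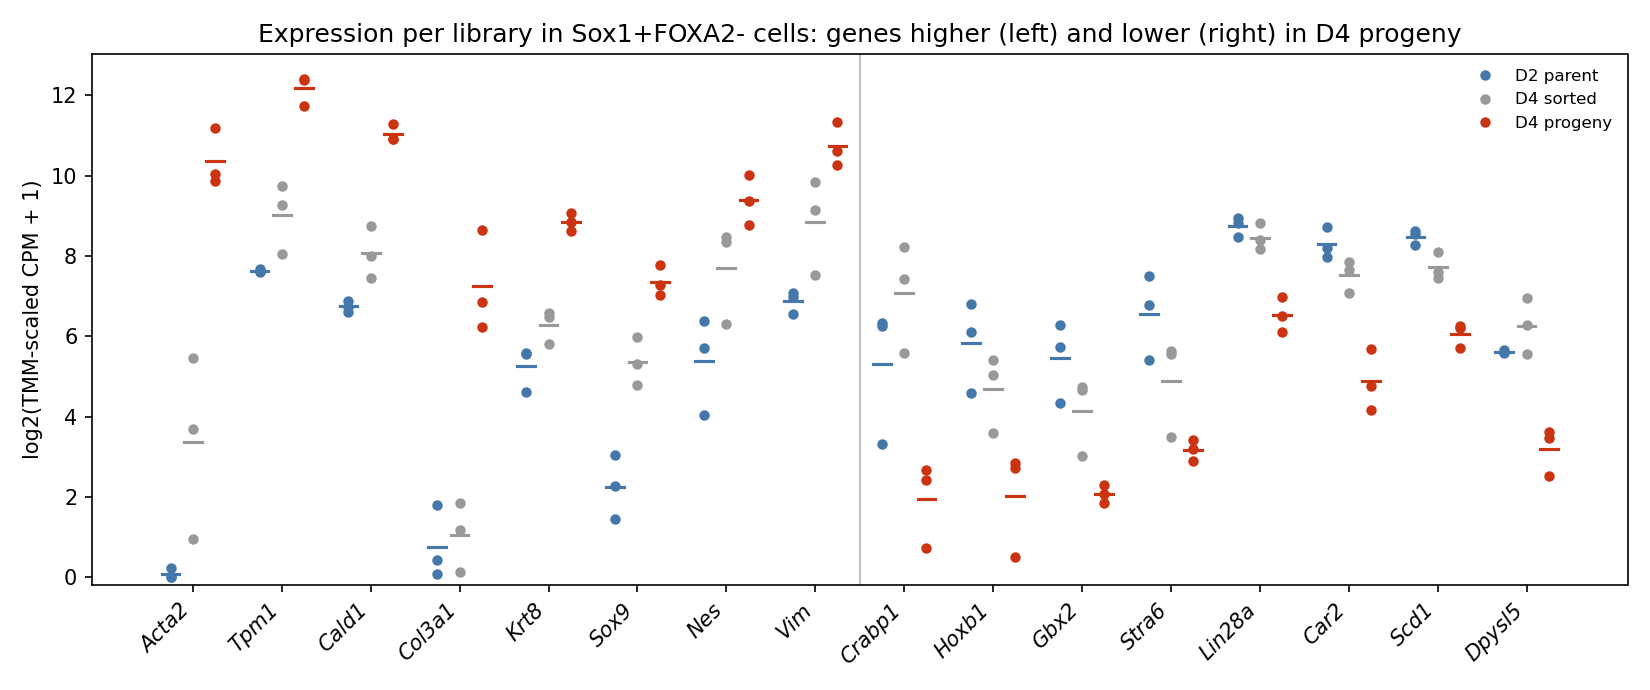
Points give log2 of TMM-scaled CPM plus 1 for each library of D2 parents, D4 sorted cells and D4 progeny, 3 libraries a group, and short lines the group means, for 16 genes named along the horizontal axis. In the 8 genes on the left the progeny libraries lie above the D2 libraries, with Acta2 moving from between 0 and 0.171 CPM to between 935 and 2343 CPM, and in the 8 on the right they lie below them.

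Part of this group marks mesenchyme. Of 11 markers of mesenchyme or smooth muscle, 10 were tested and 3 rose (Acta2, Cnn1 and Col3a1), with a median log2 fold change of 5.36 and 0 called lower. Their summed level was 52.7, 28.9 and 2.35 CPM in D2 libraries, 2430.1, 3444 and 1605.5 in progeny, and 197, 30.3 and 64.2 in D4 sorted cells. Acta2 was the highest of them in progeny and the matrix gene Lum was not tested. Col3a1 (ENSMUSG00000026043.18, chromosome 1, 45311538 to 45349706), a fibrillar collagen, had 0.342, 2.46 and 0.0535 CPM at D2, 401, 116 and 74.7 in progeny, and 2.59, 0.0884 and 1.25 in D4 sorted cells. Its parents and D4 sorted cells overlapped near 0, and progeny replicate 1 was the highest (log2 fold change 7.64 against parents, standard error 1.28, adjusted p = 0.00724, and 7.22 against D4 sorted cells, adjusted p = 0.0227). Against D4 sorted cells the call was lost without progeny replicate 1 or D4 sorted replicate 3 (up to 0.113).

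Among 19 genes of interstitial collagens, fibronectin and associated matrix proteins, 3 rose and 0 fell, with a median log2 fold change of 2.13. Besides Col3a1 these were Col12a1 and Sparc, a matrix glycoprotein. Sparc went from 102, 104 and 51.7 CPM to 591, 835 and 779 (log2 fold change 3.10, standard error 0.480, adjusted p = 0.00431), and Col12a1 from 27.4, 7.22 and 4.44 to 337, 307 and 251 (log2 fold change 4.52, standard error 0.784, adjusted p = 0.00920). Neither pair of groups overlapped. Col1a1, the main chain of type I collagen, had 16.2, 4.24 and 1.18 CPM at D2 and 567, 384 and 220.4 in progeny. The groups did not overlap, but it was not called (log2 fold change 5.76, standard error 1.47, adjusted p = 0.0905). Of 15 basement membrane genes 0 were called, with a median log2 fold change of 1.27.

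Genes of neural crest and mesenchymal progenitors gave 1 call among 16 tested, Ets1, at a median log2 fold change of 2.61. Ets1, a transcription factor of crest and endothelium, had 10.7, 15.9 and 4.44 CPM at D2 and 112, 170.5 and 117 in progeny (log2 fold change 3.68, standard error 0.521, adjusted p = 0.00208). The defining crest gene Sox10 was near 0, at 2.00, 2.12 and 1.55 CPM in D2 libraries and 0.430, 0.403 and 0.217 in progeny. Of 7 crest markers 6 were tested, and their sum was 50.0, 45.1 and 69.4 CPM at D2, 127, 208 and 132 in progeny and 97.8, 111 and 105 in D4 sorted cells. Ets1 carried the higher sum of the progeny, since 2 of the 6 had a positive log2 fold change against the parents (median -0.37) and 2 against D4 sorted cells (median -1.49).

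Keratins of simple epithelia rose as well. Krt8 had 45.9, 23.7 and 46.9 CPM at D2, 539.6, 457 and 394 in progeny and 94.1, 54.9 and 88.8 in D4 sorted cells (log2 fold change 3.58 against parents, standard error 0.370, adjusted p = 0.000244, and 2.55 against D4 sorted cells, adjusted p = 0.00893). Its partner Krt18 had 22.5, 34.4 and 6.90 CPM at D2 and 316, 312 and 422 in progeny (log2 fold change 4.04, standard error 0.482, adjusted p = 0.000811). Krt19 went from 18.2, 1.74 and 0 to 278, 350.4 and 202 CPM and was called at an adjusted p of 0.0480, lost without D2 replicate 2 or progeny replicate 1 (up to 0.122). Among 15 genes of cadherins and the epithelial to mesenchymal transition these 3 were the ones called, with a median of 0.50. The cadherins themselves were not called, Cdh1 standing at 65.7, 72.9 and 115 CPM at D2 and 73.8, 54.5 and 230.0 in progeny, and Cdh2 at 171, 191 and 73.9 and at 381, 351 and 299. The 7 surface ectoderm markers, of which Krt8 was highest, summed to 85.6, 97.6 and 148 CPM in D2 libraries, 880, 794 and 840.0 in progeny and 224, 220.2 and 263 in D4 sorted cells. Krt8 and Krt18 carried this rise, since 4 of the 7 had a positive log2 fold change against the parents (median 0.08) and 2 against D4 sorted cells (median -0.57), and the epidermal keratins Krt5 and Krt14 were each under 4 CPM in all 9 libraries.

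Some AP-1 and growth factor genes rose. Of 15 immediate early genes tested, 3 rose (Fosl2, Jun and Klf6) and 0 fell, with a median log2 fold change of 1.63. Fosl2, an AP-1 subunit, had 4.91, 2.05 and 4.71 CPM at D2, 172, 319 and 203 in progeny and 50.1, 16.7 and 22.8 in D4 sorted cells. The 3 groups were fully separate, and Fosl2 had one of the smallest adjusted p values of the comparison (log2 fold change 5.90, standard error 0.548, adjusted p = 0.000204). Jun, the partner of FOS proteins, had 26.2, 20.2 and 9.84 CPM at D2 and 151, 204 and 139.8 in progeny (log2 fold change 3.14, standard error 0.421, adjusted p = 0.00154). The call of Klf6 was lost without any 1 of the 3 D2 libraries or of progeny replicates 2 and 3 (up to 0.291). Of 24 genes of Nodal, TGF-beta and BMP signalling, 3 rose (Tgfb2, the inhibitor Smad7 and the BMP target Id2) and 0 fell, with a median of 1.75. Tgfb2, a TGF-beta ligand, went from 1.48, 6.60 and 11.4 CPM to 163, 214 and 159, against 49.8, 20.2 and 18.98 in D4 sorted cells (log2 fold change 4.78, standard error 0.648, adjusted p = 0.00160). Smad7 lost its call without D2 replicate 1, D2 replicate 3 or progeny replicate 1 (up to 0.227), and Id2 without D2 replicate 2, D2 replicate 3 or any progeny replicate (up to 0.188).

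The other genes among the 12 largest increases are described next. The serine protease gene Prss23 had 0.114, 0 and 0 CPM at D2, resting on 4 counts, and 26.6, 34.0 and 28.4 in progeny, and its fitted log2 fold change of 9.63 (standard error 1.81, adjusted p = 0.0152) depends on the prior count. Csf1, which encodes a macrophage growth factor, had 1.88, 1.78 and 0 CPM at D2 and 91.3, 75.1 and 73.3 in progeny (log2 fold change 6.02, standard error 1.22, adjusted p = 0.0245). Axl, a receptor tyrosine kinase, rose from 2.23, 2.98 and 0.321 to 91.9, 89.5 and 70.3 CPM (log2 fold change 5.50, standard error 0.730, adjusted p = 0.00150). In each of these genes the 3 progeny libraries were close together and the D2 libraries close to 0. Hspb8, a small heat shock protein, Ecm1, a matrix protein, Anxa2, an annexin, and Flrt2, a cell adhesion protein, rose by log2 fold changes of 6.25, 5.77, 5.57 and 5.35. D2 replicate 3 had 0 counts of Hspb8 and Flrt2. Of the exon bases, 30.4% in Anxa2 and 22.9% in Prss23 lie within another gene, so the levels of both are uncertain. Calls were lost for Csf1 without progeny replicate 1 (0.0786), for Ecm1 without D2 replicates 1 or 2 or progeny replicate 1 (up to 0.0887) and for Flrt2 without D2 replicate 1 or progeny replicate 1 (up to 0.0567).

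Neural progenitor genes split. Of 15 tested, 6 rose (Sox9, Sox11, Nes, Vim, Ptn and Plagl1), 1 fell (Prom1) and 8 were not called, with a median log2 fold change of 0.52. Sox9, a transcription factor shared by neural progenitors, crest and cartilage, had 1.71, 7.29 and 3.80 CPM at D2, 155, 219 and 129 in progeny and 38.7, 62.7 and 26.5 in D4 sorted cells. The 3 groups did not overlap (log2 fold change 5.29 against parents, standard error 0.563, adjusted p = 0.000244). Vim, the intermediate filament vimentin of progenitors and mesenchyme, had 134, 126 and 92.7 CPM at D2 and 1566, 2606 and 1224 in progeny (log2 fold change 3.94, standard error 0.531, adjusted p = 0.00158). For both genes the difference from D4 sorted cells was not called (adjusted p = 0.122 and 0.205). Prom1, an apical membrane protein of neuroepithelium, fell from 66.4, 56.9 and 22.2 CPM to 7.95, 6.80 and 9.20, while D4 sorted cells held 69.1, 66.5 and 55.2. It was called against both groups (log2 fold change -2.60 against parents, adjusted p = 0.00997, and -2.99 against D4 sorted cells, adjusted p = 0.0137). Both calls of Prom1 were lost without progeny replicate 1 or progeny replicate 2, the former also without D2 replicate 1 (up to 0.0575 and 0.0630), and that of Sox11 without D2 replicate 2, D2 replicate 3 or progeny replicate 2 (up to 0.0697).

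The 8 neural progenitor markers summed to 308, 178 and 65.8 CPM in D2 libraries, 1077, 713 and 486 in progeny and 469, 743 and 145 in D4 sorted cells. Nes was the highest of them and accounts for most of the sum in progeny. Of the 6 tested, Nes alone rose and 5 were not called, at a median log2 fold change of -2.06. Sox3, a SOX factor of neural progenitors, had 5.54, 7.53 and 3.16 CPM at D2 and 0, 0 and 0.845 in progeny. Fabp7, a radial glia marker, had 0 counts in all 3 progeny libraries and in 2 of the D2 libraries, against 11.2, 64.5 and 0 CPM in D4 sorted cells. The 8 neuron markers, of which 2 were at 0 in the 9 libraries, summed to 31.7, 49.8 and 40.9 CPM at D2, 26.2, 18.3 and 37.0 in progeny and 65.9, 36.4 and 70.5 in D4 sorted cells, with Stmn2 highest and 0 called. Dpysl5, a protein of growing axons, fell from 46.8, 49.2 and 48.0 CPM at D2 to 4.73, 9.98 and 11.2 in progeny, against 76.5, 124 and 46.1 in D4 sorted cells (log2 fold change -2.46 against parents, adjusted p = 0.0148, and -3.24 against D4 sorted cells, adjusted p = 0.00893), the former lost without progeny replicate 1 (0.0872). Fat3, a large protocadherin of neural tissue, was lower than in D4 sorted cells, with 23.8, 19.7 and 21.4 CPM in progeny against 289, 105.0 and 397 (log2 fold change -3.61, standard error 0.541, adjusted p = 0.0106).

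RA genes were mixed. Of 17 genes of RA response and metabolism, 2 fell (Stra6 and Crabp1), 0 rose and 15 were not called, with a median log2 fold change of -0.37. Crabp1 (ENSMUSG00000032291.8, chromosome 9, 54764748 to 54773110), a cytoplasmic RA-binding protein, had 75.4, 80.3 and 8.99 CPM in D2 libraries, 0.644, 4.39 and 5.36 in progeny, and 296, 172 and 47.0 in D4 sorted cells. All progeny libraries were lowest, D2 replicate 3 came closest to them, and the D2 and D4 sorted libraries overlapped. The log2 fold change was -3.93 against parents (standard error 0.851, adjusted p = 0.0376) and -5.57 against D4 sorted cells (standard error 0.918, adjusted p = 0.0163). The former call was lost without D2 replicates 1 or 2 or progeny replicates 1 or 2 (up to 0.164), and the latter without progeny replicate 1 (0.0734). In the fit of 18 libraries described below, Crabp1 was not called against the parents (0.0661), nor were Sfrp5, Chchd10 and Ntrk2. Stra6, the membrane receptor for the retinol carrier, went from 181, 109 and 41.7 CPM to 6.44, 8.15 and 9.70, against 46.5, 10.2 and 48.8 in D4 sorted cells (log2 fold change -3.77, standard error 0.631, adjusted p = 0.00725). With all 57 libraries in the fit, neither Stra6 nor Crabp1 was called against the parents. The RA-degrading enzyme Cyp26a1 had 87.1, 31.7 and 89.5 CPM at D2 and 1.93, 9.49 and 27.3 in progeny, which did not overlap, but it was not called (adjusted p = 0.375). The receptor gene Rarb overlapped, with 97.5, 81.97 and 28.0 CPM at D2 and 115, 27.3 and 62.8 in progeny (adjusted p = 0.998).

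Position genes gave few calls. Of 39 Hox genes 15 had 0 counts, so that the clusters, whose genes overlap, are seen only in part. Among 17 tested, 1 fell (Hoxb1) and 0 rose, with a median log2 fold change of -0.38. Hoxb1, an early RA-induced gene of the hindbrain, had 67.5, 111 and 23.2 CPM at D2, 0.430, 6.18 and 5.62 in progeny and 41.4, 11.02 and 32.0 in D4 sorted cells (log2 fold change -4.01, standard error 0.841, adjusted p = 0.0308). Gbx2, a regulator of the anterior hindbrain, had 52.0, 76.9 and 19.3 CPM at D2 and 2.58, 3.22 and 3.96 in progeny (log2 fold change -3.92, standard error 0.687, adjusted p = 0.00997), and was the gene called among 8 hindbrain genes tested (median -1.93). Part of Gbx2, 43.5% of its exon bases, lies within another gene. In both genes D2 replicate 3 was the lowest parent and still above every progeny library. Hoxb1 lost its call without D2 replicate 2, progeny replicate 1 or progeny replicate 3 (up to 0.117), and Gbx2 without D2 replicate 2 or progeny replicate 1 (up to 0.0715). Of 9 Meis, Pbx and COUP-TF genes, 1 rose, Nr2f2, at a median of 1.08. This orphan receptor had 20.1, 21.2 and 13.9 CPM at D2, 142, 312 and 241 in progeny and 35.6, 49.6 and 32.2 in D4 sorted cells (log2 fold change 3.65 against parents, standard error 0.386, adjusted p = 0.000244, and 2.56 against D4 sorted cells, adjusted p = 0.00893). Of 9 genes of the ventral neural tube, Ptch1, the Hedgehog receptor and target, fell from 100.2, 141 and 105 CPM to 26.0, 18.2 and 43.2 (adjusted p = 0.0154), a call lost without D2 replicate 2 or progeny replicates 1 or 2 (up to 0.117).

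Among pluripotency genes, Lin28a and Sall4 fell, 2 of 11 core and formative genes tested, with a median log2 fold change of -2.06 and 0 called higher. Lin28a, an inhibitor of let-7 processing, had 453, 495 and 353 CPM at D2, 90.4, 67.7 and 126 in progeny and 336, 452 and 286 in D4 sorted cells. Progeny were below both other groups, which overlapped (log2 fold change -2.19 against parents, standard error 0.332, adjusted p = 0.00379, and -1.92 against D4 sorted cells, adjusted p = 0.0200). The latter call was lost without progeny replicate 1 or 2 (up to 0.197). Sall4 had 293, 291 and 376 CPM at D2 and 84.5, 36.5 and 109 in progeny (adjusted p = 0.0298), a call lost without D2 replicates 2 or 3 or progeny replicates 1 or 2 (up to 0.160). Of 15 naive genes 0 fell and 1 rose, the Krüppel-like factor Klf5, which went from 27.4, 48.3 and 30.1 CPM to 118, 168 and 185 (log2 fold change 2.15, standard error 0.342, adjusted p = 0.00505). The median of the naive genes was -1.82, and Zfp42, Esrrb, Tfcp2l1, Tbx3 and Nr5a2 were, like Nanog, highest at D2 in D2 replicate 3.

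Few lipid synthesis genes were called, all of them lower. In a list of cholesterol synthesis and uptake, 0 of 24 genes tested had a positive log2 fold change, the median was -1.45, and 1 gene was called, Insig1. Against D4 sorted cells 0 of the 24 were positive as well, with a median of -1.31 and 0 called by edgeR. These counts rest on fitted signs, and 23 of the 24 did not pass the test against the parents. Over all genes tested, 48.7% were positive against the parents and 43.3% against D4 sorted cells. Insig1, the sterol-regulated anchor of SCAP, had 85.6, 91.7 and 163 CPM at D2 and 6.44, 38.6 and 22.8 in progeny (log2 fold change -2.32, standard error 0.527, adjusted p = 0.0487), a call lost without any D2 library, progeny replicate 1 or progeny replicate 3 left out singly (up to 0.175). Of 12 genes of fatty acid synthesis and desaturation, 3 fell (Scd1, Elovl6 and Fads2) and 0 rose, with a median of -1.04. Scd1, a fatty acid desaturase, went from 307, 376 and 395 CPM to 50.9, 75.2 and 72.9, against 275, 175 and 192 in D4 sorted cells (log2 fold change -2.44 against parents, standard error 0.313, adjusted p = 0.00131). Against the parents it was called whichever library was left out. Elovl6 lost its call without D2 replicates 2 or 3 or progeny replicates 1 or 2 (up to 0.212), and Fads2 without any D2 library or progeny replicates 1 or 2 (up to 0.210). Of 17 glycolysis genes, the glucose transporter Slc2a1 fell, from 502, 574 and 294 CPM to 92.4, 68.9 and 120.0 (adjusted p = 0.00702), a call lost without progeny replicate 1 (0.0519), and 61.3% of its exon bases lie within another gene.

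Further genes with the largest decreases are given next, and a shared pathway was not tested. Car2, a carbonic anhydrase, had 253, 424 and 293 CPM at D2, 26.2, 17.1 and 50.7 in progeny and 230.2, 202 and 135 in D4 sorted cells. Progeny were below both other groups (log2 fold change -3.37 against parents, standard error 0.426, adjusted p = 0.00119, and -2.59 against D4 sorted cells, adjusted p = 0.0152). The latter call was lost without progeny replicate 1 or 2 (up to 0.109). Ntrk2, the receptor of the neurotrophin BDNF, had 28.5, 51.4 and 58.4 CPM at D2, 9.02, 1.66 and 5.09 in progeny and 47.8, 47.5 and 44.1 in D4 sorted cells (log2 fold change -3.15 against parents, adjusted p = 0.0148, and -3.16 against D4 sorted cells, adjusted p = 0.0288), the latter lost without progeny replicate 2, progeny replicate 3 or D4 sorted replicate 3 (up to 0.0911). The Wnt inhibitor Sfrp5 had 149, 104 and 16.6 CPM at D2 and 0, 3.45 and 7.43 in progeny (log2 fold change -4.57, standard error 1.03, adjusted p = 0.0455). Pcolce2, a collagen-processing enhancer, Meox1, a mesodermal homeobox gene, Slc1a5, a glutamine transporter, Slc39a14, a metal transporter, and Chchd10, a mitochondrial protein, fell by log2 fold changes of -3.13, -3.91, -3.48, -3.04 and -3.38. The level of Chchd10 is uncertain, with 75.7% of its exon bases within another gene. Single libraries took away the calls of Sfrp5 (D2 replicates 1 and 2, progeny replicate 2, adjusted p up to 0.119), Meox1 (D2 replicate 2, progeny replicate 1, up to 0.0907), Slc1a5 (D2 replicates 1 and 2, progeny replicates 1 and 2, up to 0.228), Slc39a14 (D2 replicate 1, progeny replicates 1 and 2, up to 0.103) and Chchd10 (D2 replicates 2 and 3, every progeny replicate, up to 0.209).

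Other genes set progeny apart from D4 sorted cells in N2B27. Daam2, a formin, had 89.5, 205 and 60.1 CPM in progeny against 9.61, 7.66 and 10.02 in D4 sorted cells and 4.05, 3.81 and 3.21 at D2 (log2 fold change 3.70 against D4 sorted cells, adjusted p = 0.00893). Tmem252 had 16.8, 73.9 and 17.1 CPM in progeny and 0, 0.0589 and 0 in D4 sorted cells, where it rested on 2 counts, so that its fitted log2 fold change of 10.67 (adjusted p = 0.0229) depends on the prior count. Prdm16, a zinc finger regulator of neural stem cells, had 4.73, 5.95 and 5.84 CPM in progeny, 44.3, 48.6 and 69.6 in D4 sorted cells and 12.6, 20.3 and 5.35 in the parents, which the progeny overlapped (log2 fold change -3.29 against D4 sorted cells, adjusted p = 0.0245). Fgfbp1, a carrier of FGFs, and Fndc3c1 were lower as well, by log2 fold changes of -4.01 and -3.58. The level of Prdm16 is uncertain, with 23.7% of its exon bases within another gene. Calls were lost for Tmem252 without progeny replicate 2 or D4 sorted replicate 3 (up to 0.181), and for Prdm16 without any progeny replicate or D4 sorted replicate 3 (up to 0.121). Fgfbp1 and Fndc3c1 each lost theirs without any 1 of 6 libraries, D2 replicate 2, the 3 progeny replicates and D4 sorted replicate 3 in both, with D4 sorted replicate 1 for Fgfbp1 and D4 sorted replicate 2 for Fndc3c1 (up to 0.203 and 0.197).

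Imprinted growth genes gave 4 higher calls and 1 lower among 16 tested, with a median log2 fold change of 0.96. H19, a maternally expressed non-coding RNA, had 500.4, 644 and 384 CPM at D2, 5759, 5094 and 2421 in progeny and 1171, 2007 and 714 in D4 sorted cells (log2 fold change 3.12, standard error 0.475, adjusted p = 0.00383). Peg3, a paternally expressed zinc finger gene, had 798, 997 and 548 CPM at D2 and 5765, 8638 and 5803 in progeny (log2 fold change 3.11, standard error 0.481, adjusted p = 0.00431). D4 sorted cells had 1629.9, 2532 and 743 CPM of Peg3. For H19 the 3 groups were separate, while for Peg3 the D4 sorted libraries overlapped the D2 libraries, and for neither was the difference between progeny and D4 sorted cells called (adjusted p = 0.140 and 0.0791). Plagl1 and the CDK inhibitor Cdkn1c were the other genes that rose and the adaptor Grb10 the one that fell. Cdkn1c lost its call without any D2 library or progeny replicates 1 or 2 (up to 0.508) and Grb10 without D2 replicate 1 or progeny replicates 1 or 2 (up to 0.153). No S phase or mitotic list member was called, at 0 of 17 S phase genes (median -0.36) and 0 of 20 genes of G2 and M phase (median -0.47) by edgeR's adjusted test, where 1895 of all genes had an unadjusted p under 0.05 and DESeq2 called 739.

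**Figure D2:**
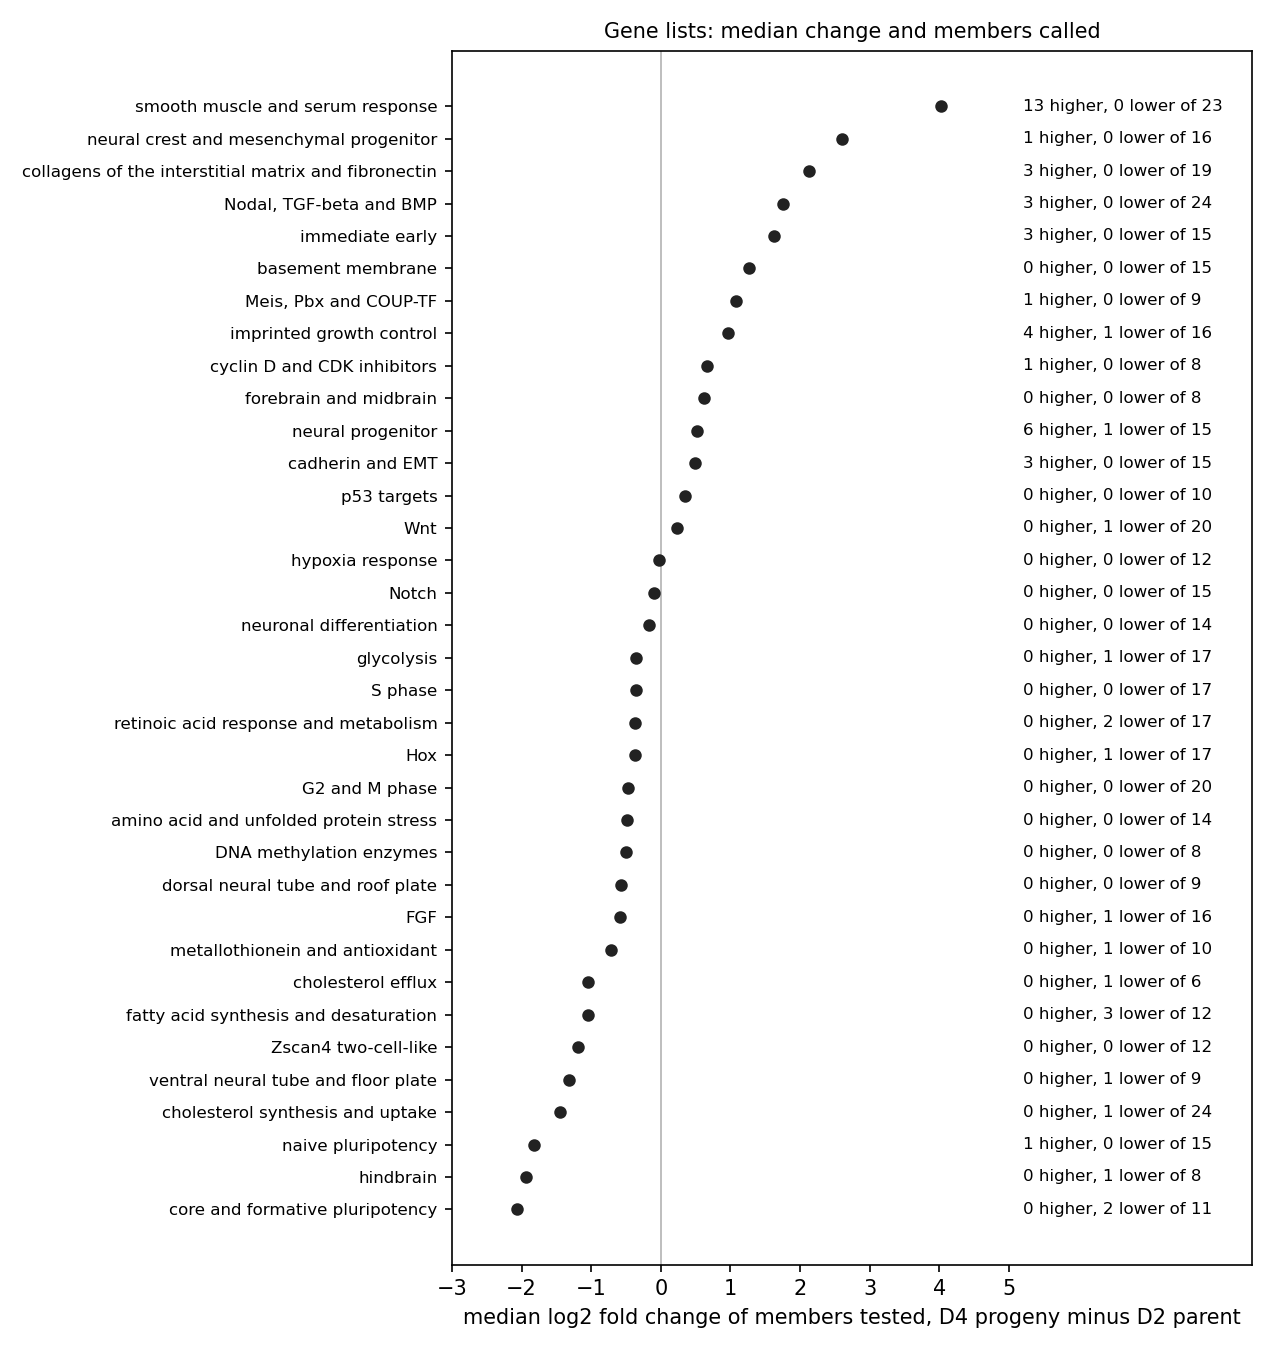
Each point is the median log2 fold change of the tested members of a gene list (cell type marker sets are not shown), D4 progeny minus D2 parents, with the number of members called higher and lower by edgeR at the right. Medians of the lists shown ran from -2.06 for core and formative pluripotency genes to 4.03 for smooth muscle and serum-response genes, while all genes tested had a median of -0.03.

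Marker sets of extraembryonic endoderm, of primitive streak and mesoderm, and of endothelium and blood gave no called increase. Cell types without a marker set were not examined. The 14 markers of extraembryonic endoderm, of which Lamb1 was highest and 11 were tested, summed to 537, 507 and 250.3 CPM at D2, 329, 471 and 497 in progeny and 429, 239 and 256 in D4 sorted cells, with 0 called by edgeR and a median of -0.14. The 11 markers of primitive streak and mesoderm summed to 58.2, 70.9 and 77.2 CPM at D2 and 14.8, 21.1 and 27.3 in progeny, 1 of them at 0 and Meox1, which fell, the highest. The 8 markers of endothelium and blood summed to 28.8, 26.7 and 40.2 CPM at D2 and 45.2, 12.5 and 30.1 in progeny, with 0 called. The part of such cells in the changes of other genes was not tested.

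A CArG box, the sequence bound by SRF, was searched on both strands in promoters of 300 bases (250 before to 50 after the gene start, RefSeq, GRCm38.p6). Only an exact match to CC, 6 bases of A or T and GG was counted. It was present in 535 of 32851 promoters (1.63%), in 240 of 17823 promoters of genes tested (1.35%), in 6 of 210 promoters of genes called higher in progeny (2.86%), in 0 of 42 of genes called lower and in 4 of 21 promoters of the smooth muscle and serum-response list (19%). The members of that list were picked as smooth muscle and serum-response genes, so its higher share is no result of these data. Of its members with a match, only Cnn2 was called higher. A match is a description of letters and not a bound site. The Acta2 window held no exact match, and boxes with a mismatch or outside the window were not searched. The genes called higher with a match were Cnn2, Rnd3, Pdgfc, Filip1, Glipr2 and Fermt2. Promoters are shown for the 2 with the largest log2 fold changes, Cnn2 and Rnd3, a small GTPase of the actin cytoskeleton. Cnn2 had 24.7, 25.3 and 6.42 CPM at D2 and 273, 434 and 245 in progeny (log2 fold change 4.07, standard error 0.589, adjusted p = 0.00243). Rnd3 had 24.0, 18.8 and 34.9 CPM at D2 and 181, 452 and 314 in progeny (log2 fold change 3.61, standard error 0.447, adjusted p = 0.00107). The windows are chr10:79988350-79988649 on the plus strand for Cnn2 and chr2:51149062-51149361 on the minus strand for Rnd3, written 5′ to 3′ with the CArG box in capitals.
Cnn2: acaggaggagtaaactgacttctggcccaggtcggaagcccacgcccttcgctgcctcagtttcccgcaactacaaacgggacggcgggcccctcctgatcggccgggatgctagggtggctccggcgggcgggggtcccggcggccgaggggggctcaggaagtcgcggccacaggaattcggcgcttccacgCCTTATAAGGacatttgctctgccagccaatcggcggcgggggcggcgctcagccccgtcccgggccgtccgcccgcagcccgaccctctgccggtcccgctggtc
Rnd3: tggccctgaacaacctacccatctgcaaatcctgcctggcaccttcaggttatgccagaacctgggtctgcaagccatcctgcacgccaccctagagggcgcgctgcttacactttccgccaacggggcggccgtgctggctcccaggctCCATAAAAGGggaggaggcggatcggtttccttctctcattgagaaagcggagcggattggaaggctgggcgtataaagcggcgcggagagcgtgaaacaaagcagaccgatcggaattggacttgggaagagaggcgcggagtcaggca

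Whether the changes were particular to the Sox1+FOXA2- gate was tested against the other gates, as the difference between changes from D2 parents to D4 progeny in a fit of 18 libraries. Against Sox1-FOXA2+ cells 5 of 22909 genes (0.0218%) were called, and against Sox1+FOXA2+ cells 2 (0.00873%). DESeq2 called 381 and 340 there. The contractile genes were not among the 7. The log2 fold change of Acta2 was 14.77 in the Sox1+FOXA2- gate, 8.97 in the Sox1-FOXA2+ gate and 11.23 in the Sox1+FOXA2+ gate, all called, and the differences were not called (adjusted p = 0.118 and 0.571). For Tpm1 the 3 values were 4.57, 2.91 and 3.57, also all called (adjusted p of the differences 0.103 and 0.571). Krt8 gave 3.57, 4.17 and 3.87 (adjusted p of the differences 0.906 and 0.984). Sox9 gave 5.28, 2.97 and 3.81 (0.513 and 0.593). A p that misses the threshold does not show that the gates changed alike.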

How the data were processed

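The authors aligned reads with STAR, handled them with SAMtools and counted them per GENCODE M21 gene (GRCm38) with featureCounts, and deposited raw counts, with no versions given. The table held 55450 genes and all its columns matched a sample. Genes with all exon bases inside another gene's span were at 0 counts in 9606 of 9617 cases (99.9%), against 4245 of 33282 genes free of overlap (12.8%), so that such genes were not measured. The loss of counts in partly covered genes was not tested, and their levels are uncertain.

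Counts were tested in R 4.3.3 with edgeR 4.0.16 (limma 3.58.1), with TMM factors, the default filter (minimum count 10, minimum total 15), a fit of 9 libraries for Sox1+FOXA2- cells and of 18 libraries for the gates, and the two-sided quasi-likelihood F test with Benjamini-Hochberg adjustment over all genes tested. A gene was called at an adjusted p under 0.05. With 3 libraries a group an exact permutation test cannot go below p = 0.1, and so edgeR's model-based test was used throughout. Standard errors are the log2 fold change divided by the root of F. DESeq2 1.42.0, RLE factors, no filter, other sets of libraries and leaving out single libraries were tried as alternatives. Annotation tables, promoters and figures were made in Python 3.11.15, using pandas 2.3.3 for tables, numpy 2.4.6 for arrays and matplotlib 3.10.9 for plots.

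Named genes were the 12 largest called changes each way against the parents, the 6 largest each way against D4 sorted cells, the genes of the gate, and list members. The largest changes were taken among genes with a mean of at least 20 CPM in the higher group and no overlap between libraries of the 2 groups. For these genes, lack of overlap in the comparison that picked them was set by the choice and adds no evidence. The lists were written from textbook knowledge. Members and lists were chosen with earlier results of these data known. Totals per library in the 2 fits ranged from 10170632 to 81845651 counts.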

Additional observations from a re-analysis of the deposited data

Results flagged for a closer look

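Results here were marked because the change from D2 parents to D4 progeny differed between gates by edgeR's interaction test in the fit of 18 libraries, with adjustment over all 22909 genes tested. The causes were not tested.

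Igfbp5, an IGF-binding protein, had 22.0, 11.2 and 14.4 CPM in Sox1+FOXA2- parents and 101, 235 and 231 in their progeny. In the Sox1-FOXA2+ gate it went the other way, from 118, 162 and 80.8 to 30.3, 34.0 and 26.1 CPM, a change that was not called by itself (adjusted p = 0.0917). The difference in log2 change was 5.57 (standard error 0.867, adjusted p = 0.0117).

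Hmga2, a chromatin protein of growing embryonic cells, had 79.2, 78.5 and 23.3 CPM in Sox1+FOXA2- parents and 199, 417 and 131 in progeny, against 94.2, 144 and 106 and then 24.7, 27.2 and 31.9 in the Sox1-FOXA2+ gate. Parents and progeny did not overlap in either gate, and the difference was 4.09 (standard error 0.620, adjusted p = 0.0117).

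Lrp2, the endocytic receptor megalin, had 398, 594 and 182 CPM in Sox1+FOXA2- parents and 209, 124 and 303 in progeny, which overlapped. In the Sox1-FOXA2+ gate it went from 269, 265 and 353 to 1347, 2951 and 1947 CPM, and the difference was -3.70 (standard error 0.545, adjusted p = 0.0117). Igfbp5, Hmga2 and Lrp2 were called whichever of the 18 libraries was left out. In a fit of all 57 libraries Lrp2 was called (adjusted p = 0.0162), and Igfbp5 (0.302) and Hmga2 (0.174) were not.

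Ptpn3, a protein tyrosine phosphatase, changed by a log2 fold change of -2.10 in the Sox1+FOXA2- gate and 1.34 in the Sox1-FOXA2+ gate, a difference of -3.44 (adjusted p = 0.0186) that was called in 13 of 18 fits with a library left out (adjusted p up to 0.0783). Igfbp4, another IGF-binding protein, changed by 1.61 and -1.15, a difference of 2.76 (adjusted p = 0.0130) that was lost without Sox1+FOXA2- progeny replicate 2 (0.0579). Within the Sox1-FOXA2+ gate the changes of Ptpn3 and Igfbp4 were not called by themselves (adjusted p = 0.0916 and 0.0531). With 57 libraries neither difference between gates was called (Ptpn3 0.052, Igfbp4 0.305).

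Against the Sox1+FOXA2+ gate, Gbp2, an interferon-induced GTPase, differed by -6.34 (adjusted p = 0.0406, called in 9 of 18 such fits, up to 0.157). Its Sox1+FOXA2+ parents were near 0, at 0.0346, 0.0534 and 0 CPM, so that the value depends on the prior count. Pcolce, a collagen-processing enhancer, differed by -10.93 (adjusted p = 0.0406, called in 11 of 18, up to 0.134). It had 0 counts in all Sox1+FOXA2+ parents and rose at least 1320-fold there against a floor of 3 counts, and the fitted difference is no bound. With 57 libraries neither Gbp2 nor Pcolce was called (0.629 for both), nor with the alternative on replicate numbers given below. In Sox1+FOXA2- cells Pcolce went from 1.12, 3.14 and 17.4 to 43.4, 41.8 and 30.8 CPM.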

How the results depend on the processing

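The number of genes called depended on the processing, while the directions of named genes seldom did. For progeny against parents, 231 genes became 739 with DESeq2, 606 without the filter and 402 in the fit of 18 libraries, and 124 to 341 when single libraries were left out. RLE factors gave 240, the 6 libraries alone 320 and all 57 libraries 213, where Cnn1, Sfrp5, Hoxb1, Crabp1, Gbx2, Meox1, Stra6, Chchd10, Ntrk2, Pcolce2 and Slc39a14 were not called (adjusted p from 0.0615 for Cnn1 to 0.519 for Sfrp5). Calls of named genes were also lost in the fit of 18 libraries (Crabp1, Sfrp5, Chchd10 and Ntrk2), with only the 2 groups compared (Krt19, Sfrp5, Crabp1, Slc1a5, and Fndc3c1 against D4 sorted cells) and with RLE factors (Krt19), with adjusted p up to 0.0938 for Krt19. DESeq2 shared 230 of the 231 genes, all in the same direction. For D4 sorted cells against parents, 0 genes became 103 with DESeq2, 114 without the filter, 2 with 57 libraries and 0 to 10 with single libraries left out. For progeny against D4 sorted cells, 82 became 572 with DESeq2, 420 without the filter and 34 to 151 with single libraries left out, and with 57 libraries Daam2, Tmem252, Prdm16, Fgfbp1 and Fndc3c1 were not called (adjusted p from 0.0551 for Prdm16 to 0.637 for Fgfbp1). The share of higher calls there was 72% with edgeR, 49.3% with DESeq2 and 92.2% with 57 libraries. The cause was not tested.

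For the difference from the Sox1-FOXA2+ gate, 5 genes became 381 with DESeq2, 134 without the filter, 2 with 57 libraries and 3 to 21 with single libraries left out. For the difference from the Sox1+FOXA2+ gate, 2 became 340 with DESeq2, 48 without the filter, 0 with 57 libraries and 0 to 47 with single libraries left out. The cause was not tested.

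The labels do not say that replicate numbers pair libraries. Residuals of libraries with the same number correlated at 0.159, -0.048 and 0.0691 between parents and progeny, 0.2, -0.185 and -0.0136 between parents and D4 sorted cells, and 0.11, 0.423 and -0.0259 between progeny and D4 sorted cells, so that no set of 3 was above 0 throughout and the libraries were taken as unpaired. This was not computed for the fit of 18 libraries. There D4 progeny replicate 1 of all 3 gates had few counts (11189529, 10170632 and 13480175) and 41.7%, 43.4% and 43.3% of them in 100 genes. A block on replicate number gave 302 genes for progeny against parents, 8 for D4 sorted cells against parents, 121 for progeny against D4 sorted cells, and 10 and 0 for the differences between gates, where Gbp2 and Pcolce were not called. With the block Crabp1 was not called against the parents (0.078), nor Fgfbp1 (0.0559) and Fndc3c1 (0.0524) against D4 sorted cells.

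The log2 fold change of Foxa2, -0.12, turned to 0.23 without D2 replicate 1, 0.36 without D2 replicate 2 and 0.41 without progeny replicate 2, and ran from -0.96 to 0.41 over the libraries left out. It was never called, and the cause was not tested. Depth limits genes of low counts, and of the 9 libraries progeny replicate 1 had the fewest counts (11189529) and D2 replicate 3 the fewest genes detected (15904). D4 sorted cells match the progeny in time, but replating, serum, the day of gating and the missing final sort changed together, and no library separates these.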

Other observations

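Some further genes called between progeny and parents are given here, chosen after their values were seen and forming no list. Lifr, the LIF receptor, had 25.9, 38.0 and 48.8 CPM at D2, 228, 383 and 399 in progeny and 62.9, 29.9 and 20.9 in D4 sorted cells (log2 fold change 3.17 against parents, standard error 0.441, adjusted p = 0.00184). Egfr, the EGF receptor, had 42.1, 33.6 and 6.63 CPM at D2 and 205, 194 and 214 in progeny (log2 fold change 2.90, standard error 0.527, adjusted p = 0.0132). Its ligand gene Hbegf had 3.02, 0.616 and 5.24 CPM at D2 and 73.7, 96.8 and 80.0 in progeny (log2 fold change 4.82, adjusted p = 0.0303), a call lost without D2 replicates 1 or 2 or progeny replicate 1 (up to 0.0858). Progeny lay above the parents in all 3 genes.

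Nrp1, a semaphorin and VEGF receptor, had 27.9, 26.9 and 6.79 CPM at D2, 163, 174 and 174 in progeny and 19.1, 10.02 and 27.8 in D4 sorted cells (log2 fold change 3.05 against parents, adjusted p = 0.00769). Efna5, an ephrin, had 58.5, 96.9 and 38.2 CPM at D2, 509, 264 and 480.4 in progeny and 364, 189 and 200.4 in D4 sorted cells, which the progeny overlapped (log2 fold change 2.69 against parents, adjusted p = 0.00448). Tbx2, a T-box factor, had 2.28, 0.684 and 4.17 CPM at D2 and 98.6, 93.8 and 95.1 in progeny (log2 fold change 5.34, standard error 0.737, adjusted p = 0.00184). These 3 genes were called whichever library was left out.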
